A study of Mus musculus with 6 samples.

Results

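Perivascular macrophages are described here through 8 marker genes, Mrc1, Cd163, Lyve1, Stab1, F13a1, Pf4, Cbr2 and Ms4a7, in mouse brain with and without Pofut1. All probe sets that carry 1 of these symbols and no other were taken, which gave 10 of the 45037 probe sets tested and 8 of the 18193 genes with a probe set of their own. Lyve1 and Ms4a7 each had 2 probe sets, and the brighter one over the 6 arrays is called probe set 1. The members were chosen as known markers of these cells and not by a measured value, although earlier results of these data were known.

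Total RNA of whole brain was measured on 6 one-colour oligonucleotide arrays, in 3 groups of 2, all from C57/Bl6 mice aged 2 months. Knockout brains carried the Nestin-Cre transgene and 2 floxed Pofut1 copies, NestinCre control brains carried the transgene with wild type Pofut1, and Flox control brains carried 2 floxed copies and no Cre. No group is a wild type brain without either alteration. The Nestin promoter drives Cre in neural progenitors and what descends from them, so that a gene of macrophages, which have another origin, is read here in cells that the transgene is not designed to recombine. The array signal of Pofut1, the enzyme that puts O-fucose on Notch receptors, was 70.8% of the control level in its brightest probe set, with both knockout arrays below all 4 controls. That difference had an adjusted p of 0.211 in limma, the linear model used for every test here. The other Pofut1 probe sets read 80.1% and 88.5% of the control level, with adjusted limma p of 0.286 and 0.460.

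Perivascular macrophages sit between the vessel wall and the brain tissue, and with the macrophages of the meninges and the choroid plexus they are called border-associated macrophages. They take up protein, lipid and debris from the fluid around vessels through scavenger and lectin receptors, and they lie against the mural cells, the pericytes and smooth muscle cells of the vessel. Microglia, the macrophages of the brain tissue itself, share the general myeloid genes with them but express little of these markers. The samples are bulk tissue, so fewer cells of a type and less RNA per cell cannot be told apart. Array signals of different probe sets are not on 1 scale, and values are compared only within a probe set.

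The promoters of the members are shown first because Mrc1, Cd163 and F13a1 were higher in knockout brain while Pf4 and Stab1 were lower, although all are macrophage genes. Each line gives the 250 bases before the RefSeq start site in assembly GRCm38.p6, read along the gene from 5′ to 3′. Capitals mark GAGGAA or its reverse complement TTCCTC, letters of the type bound by PU.1, the factor of all macrophages. Mrc1 lies at chr2:14229164-14229413 on the plus strand, Cd163 at chr6:124304401-124304650 on the plus strand and Pf4 at chr5:90772185-90772434 on the plus strand. The first start site of F13a1 lies at chr13:37050245-37050494 on the minus strand and that of Stab1 at chr14:31168642-31168891 on the minus strand.
Mrc1: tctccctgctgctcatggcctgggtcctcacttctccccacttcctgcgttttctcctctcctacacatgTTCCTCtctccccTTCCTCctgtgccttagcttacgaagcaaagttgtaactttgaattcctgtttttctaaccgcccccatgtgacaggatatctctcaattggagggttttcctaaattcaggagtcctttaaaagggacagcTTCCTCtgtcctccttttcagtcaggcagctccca
Cd163: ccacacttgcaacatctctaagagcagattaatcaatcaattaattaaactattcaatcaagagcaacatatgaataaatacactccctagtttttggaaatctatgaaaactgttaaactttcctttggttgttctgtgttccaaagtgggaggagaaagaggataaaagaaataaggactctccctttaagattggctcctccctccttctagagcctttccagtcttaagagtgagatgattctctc
F13a1: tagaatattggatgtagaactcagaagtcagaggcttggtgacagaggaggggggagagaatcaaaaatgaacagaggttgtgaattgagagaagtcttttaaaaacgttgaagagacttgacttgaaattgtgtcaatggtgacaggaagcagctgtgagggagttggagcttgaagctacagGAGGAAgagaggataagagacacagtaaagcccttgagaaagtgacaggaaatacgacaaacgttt
Pf4: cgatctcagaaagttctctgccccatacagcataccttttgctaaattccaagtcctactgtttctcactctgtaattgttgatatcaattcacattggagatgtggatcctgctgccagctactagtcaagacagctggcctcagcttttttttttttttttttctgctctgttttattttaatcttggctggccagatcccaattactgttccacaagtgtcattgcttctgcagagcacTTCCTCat
Stab1: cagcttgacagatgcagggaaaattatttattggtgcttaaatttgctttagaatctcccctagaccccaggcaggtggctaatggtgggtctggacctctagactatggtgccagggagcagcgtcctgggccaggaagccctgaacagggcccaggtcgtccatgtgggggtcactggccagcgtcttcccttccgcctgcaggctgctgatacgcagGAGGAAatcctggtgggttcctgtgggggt

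RefSeq start sites were matched for 7 of the 8 genes, 9 start sites in all, and Lyve1 had no entry. GAGGAA was found on either strand in 5 of the 9 windows, against 23.3% of 32817 mouse promoter windows of the same length. The Mrc1 window held 3 copies, at 180, 167 and 35 bases before the start site. Single copies lay 66 bases before the first F13a1 start site, 79 before Cbr2, 30 before Stab1 and 8 before Pf4. No copy was found in the windows of Cd163, of either Ms4a7 start site or of the second F13a1 start site. The longer form GAGGAAGT, which contains GAGGAA, was found in the Pf4 window alone of the 9, against 2.44% of all windows. TGGGAA, letters of the type bound by RBPJ, the DNA-binding partner of Notch, was found in the Cbr2 window and that of the second F13a1 start site, against 21.6% of all windows. TGCTGA, a half-site of the MAF factors of macrophages, was found in the Stab1 window, against 16.1%. GAGGAA was thus found beside members on both sides of the knockout difference, and these matches are letters in a window and not measured binding.

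In knockout brain Mrc1, Cd163, Lyve1 and F13a1 read 1.33 to 1.46 times the control level in their brightest probe sets. Stab1, Pf4 and Cbr2 read lower, at 87.7%, 89.7% and 62.9% of it, and Ms4a7 read 102%. No member passed the adjusted threshold of 0.05 in the knockout against both controls (0 of 10 probe sets, against 0.0155% of all probe sets), with adjusted p from 0.246 to 0.994 in limma. At an unadjusted p under 0.05, 5 of the 10 probe sets were higher and 0 lower, where 6.04% and 5.08% of all probe sets were. Both knockout arrays lay above all 4 controls in 5 of the 10 probe sets, against 8.77% of all, and below all 4 in 3 of the 10, against 9.19%. The median difference of the 8 genes was 0.22 on the log2 scale, beside -0.02 over all genes. Of all genes, by their brightest probe sets, 40.7% were above 0. At an unadjusted limma p under 0.05, 4.16% of all genes were higher and 6.45% lower. The counts of the gene lists below in this comparison stand beside these shares. The members spread from -0.67 to 0.55, so they did not read as 1 block. All 3 knockout comparisons share the same 2 knockout arrays, and those against both controls and against each control share control arrays.

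**Figure D1:**
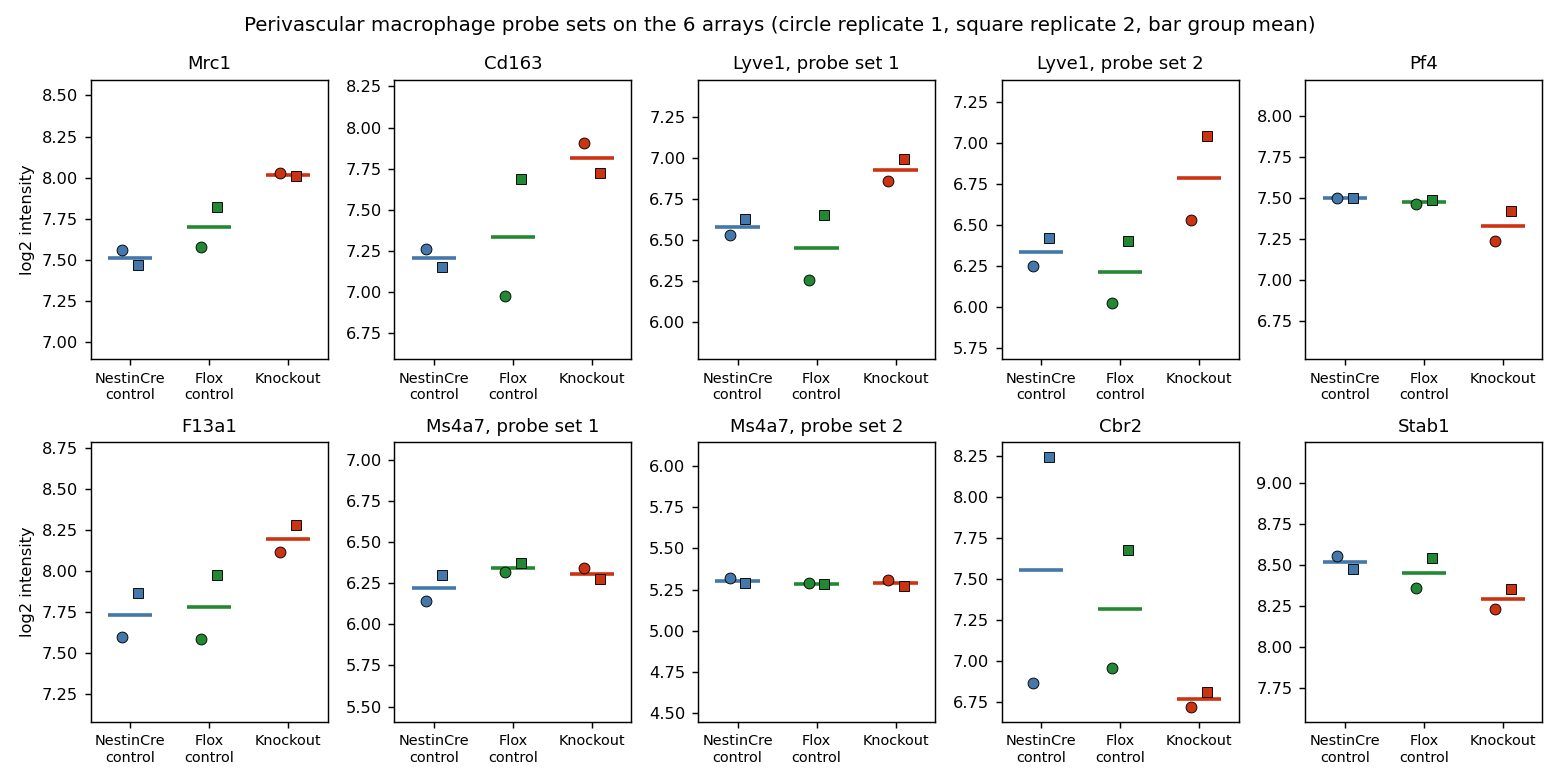
Log2 array intensity (y axis) of the 10 probe sets of the 8 perivascular macrophage genes on each array, by group (x axis). Circles are replicate 1, squares replicate 2 and bars group means, and all panels span the same number of log2 units. Both knockout arrays lie above the 4 controls for Mrc1, Cd163, both Lyve1 probe sets and F13a1, and below them for Pf4, Cbr2 and Stab1.

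The endocytic receptors come first. Mrc1 encodes the mannose receptor CD206, which takes up glycoproteins that end in mannose and is the most used marker of these cells. Its log2 intensity was 7.56 and 7.47 on the 2 NestinCre control arrays, 7.58 and 7.82 on the 2 Flox control arrays, and 8.03 and 8.01 on the 2 knockout arrays. Both knockout arrays were high and close together, 0.19 above the highest control. Mean intensity was 259 ± 1.84 (SD, n = 2) in knockout, 183 ± 8.42 in NestinCre control and 209 ± 25.1 in Flox control brain. The knockout was 0.41 higher than both controls on the log2 scale (SE 0.08, 95% interval 0.19 to 0.63), with an unadjusted p of 0.00469 and an adjusted p of 0.246 in limma. It was 0.51 above NestinCre control (adjusted p 0.499, limma) and 0.32 above Flox control (adjusted p 0.241, limma). The difference lay between 0.35 and 0.47 with each array left out in turn, at an unadjusted limma p under 0.05 in 6 of 6 fits.

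Cd163 encodes the receptor that clears haemoglobin bound to haptoglobin. It read 7.26 and 7.15 in NestinCre control, 6.98 and 7.69 in Flox control, and 7.91 and 7.72 in knockout brain. The knockout arrays were the 2 highest, but the lower of them lay only 0.03 above Flox control replicate 2, and the 2 Flox control arrays stood apart from each other. Mean intensity was 225 ± 20.4 (SD, n = 2) in knockout, 148 ± 7.99 in NestinCre control and 166 ± 56.8 in Flox control brain. The knockout was 0.55 higher than both controls (SE 0.21), with an unadjusted p of 0.0486 and an adjusted p of 0.446 in limma. With each array left out in turn the difference ran from 0.37 to 0.72, with an unadjusted p under 0.05 in 2 of 6 limma fits.

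Lyve1 encodes a hyaluronan receptor found on lymphatic endothelium and on a subset of border macrophages. Probe set 1 read 6.53 and 6.63 in NestinCre control, 6.26 and 6.65 in Flox control, and 6.86 and 7.00 in knockout brain. Probe set 2 read 6.25 and 6.42, then 6.03 and 6.40, and then 6.53 and 7.04 in the same order. In both, the knockout arrays lay above all controls, by 0.21 and 0.11, and Flox control replicate 1 was lowest. The knockout was higher by 0.41 in probe set 1 (SE 0.13, unadjusted p 0.0229, adjusted p 0.368, limma). It was higher by 0.51 in probe set 2 (SE 0.19, unadjusted p 0.0407, adjusted p 0.423, limma). With each array left out in turn, probe set 1 ran from 0.31 to 0.51, with an unadjusted p under 0.05 in 4 of 6 limma fits, and probe set 2 from 0.26 to 0.76, in 2 of 6. Probe set 2 was lowest, at 0.26, without knockout replicate 2. Both probe sets were dim, below the median of all probe sets (7.35) on every array. Their profiles over the 6 arrays correlated at 0.941, which describes 2 readings of 1 transcript.

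Lyve1 is also a lymphatic marker, and the other lymphatic genes read in both directions. Of the 6 measured of 7 listed, 2 were above 0, and the median was -0.05. At an unadjusted p under 0.05, 0 were higher and 1 lower. Reln, which neurons make too, was 0.13 higher (SE 0.06, unadjusted p 0.0678, adjusted p 0.493, limma), with 11.21 and 11.11 in knockout and 10.99 to 11.09 in control arrays, and Tbx1 was 0.07 higher (SE 0.12). Pdpn was 0.24 lower (SE 0.06, unadjusted p 0.00964, adjusted p 0.296, limma). Flt4, the receptor of lymphatic growth factors, was 0.22 lower, and Prox1, the factor that defines lymphatic identity and is also made in neurons, 0.08 lower. The mean log2 intensity of the lymphatic list was 8.53 to 8.57 in knockout and 8.55 to 8.65 in control arrays, and its part in the Lyve1 values was not tested.

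Stab1 encodes stabilin-1, a scavenger receptor for oxidised lipoprotein and for the matrix protein SPARC. It read 8.56 and 8.47 in NestinCre control, 8.36 and 8.54 in Flox control, and 8.23 and 8.35 in knockout brain. Its knockout arrays were the 2 lowest, although the higher of them was within 0.01 of Flox control replicate 1. The knockout was 0.19 lower (SE 0.08), with an unadjusted p of 0.0584 and an adjusted p of 0.471 in limma. Mean intensity was 314 ± 18.1 (SD, n = 2) in knockout, 366 ± 14.6 in NestinCre control and 350 ± 31.3 in Flox control brain.

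The secreted proteins parted. F13a1 encodes the A subunit of coagulation factor XIII, the transglutaminase that crosslinks fibrin, which macrophages also make. It read 7.60 and 7.87 in NestinCre control, 7.59 and 7.98 in Flox control, and 8.11 and 8.28 in knockout brain. The knockout arrays were the 2 highest, and within each control group replicate 2 was above replicate 1. The knockout was 0.44 higher than both controls (SE 0.14), with an unadjusted p of 0.0297 and an adjusted p of 0.392 in limma. Mean intensity was 294 ± 23.5 (SD, n = 2) in knockout, 214 ± 27.9 in NestinCre control and 222 ± 42.3 in Flox control brain. With arrays left out in turn the difference ran from 0.34 to 0.54, with an unadjusted p under 0.05 in 3 of 6 limma fits.

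Pf4 encodes the chemokine CXCL4, stored in platelets and expressed by border macrophages. It read 7.50 on both NestinCre control arrays, 7.46 and 7.49 in Flox control, and 7.24 and 7.42 in knockout brain. The 4 controls lay close together, and both knockout arrays were below them, the nearer by 0.04. The knockout was 0.16 lower (SE 0.07, unadjusted p 0.0621, adjusted p 0.481, limma). It ran from -0.25, without knockout replicate 2, to -0.07, without knockout replicate 1. F13a1 and Pf4 are both also platelet genes, and in the platelet list 7 of 9 measured genes read below 0, with a median of -0.12. The other 2 were above 0, as were 40.7% of all genes, so most genes read below 0 in any case. Gp9 was 0.19 lower (SE 0.06, unadjusted p 0.0306, adjusted p 0.395, limma), Gp5 0.20, Itgb3 0.18 and Gp1bb 0.17. Against Flox control Gp5 was 0.41 and Itgb3 0.36 lower, but against NestinCre control Gp5 was 0.01 higher and Itgb3 0.004 lower. Ppbp, the chemokine stored beside Pf4 in platelets, was dim and flat at 5.31 to 5.42. The mean log2 intensity of the platelet list was 6.47 to 6.49 in knockout and 6.48 to 6.68 in control arrays, so the groups overlapped. The part of platelets in the F13a1 and Pf4 values was not tested.

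Cbr2, a carbonyl reductase first known from lung and a marker of resident macrophages in several tissues, had the largest spread. It read 6.87 and 8.24 in NestinCre control, 6.96 and 7.68 in Flox control, and 6.72 and 6.81 in knockout brain. Replicate 2 of each control group was high, while both replicate 1 controls lay near the knockout arrays. Mean intensity was 109 ± 4.79 (SD, n = 2) in knockout, 209 ± 131 in NestinCre control and 165 ± 56.8 in Flox control brain. The knockout was 0.67 lower than both controls with an SE of 0.43, an unadjusted p of 0.181 and an adjusted p of 0.660 in limma. Against the 2 replicate 1 controls alone it was 0.15 lower, a setting chosen after the values were seen. With 1 array per control group, that setting holds no spread between controls.

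Some transcripts of olfactory and nasal mucosa were high on the same 2 control arrays as Cbr2, and others were not. Sec14l3, a lipid-binding protein, read 6.67 and 8.33 in NestinCre control, 6.68 and 7.62 in Flox control, and 6.27 and 6.41 in knockout brain. Bpifa1, a secreted protein of the upper airway, read 5.64 and 9.76, then 6.83 and 8.06, and then 5.56 and 5.54. Stoml3, a protein of olfactory neuron cilia, read 7.21 and 9.12, then 7.16 and 8.14, and then 6.94 and 7.27. The mucosal cytochrome Cyp2f2 read 5.85 and 7.74, then 6.19 and 7.42, and then 5.79 and 5.76. Each was highest on NestinCre control replicate 2 and next on Flox control replicate 2, as were Cyp2g1 and Umodl1. Bpifb3 read 5.66 and 9.52, then 5.75 and 5.98, and then 6.50 and 5.58, high on NestinCre control replicate 2 alone. Obp1a, an odorant-binding protein, was instead high on NestinCre control replicate 1, at 7.72 against 5.36 to 5.43 elsewhere. Gng13 was highest on Flox control replicate 1, with 11.44 to 11.75 over all arrays, and Cnga4 on Flox control replicate 2, at 6.42 against 5.91 to 6.05. Of the 12 measured of 15 listed mucosal genes, a list chosen after the values were seen, all 12 were below 0 in the knockout. Their mean log2 intensity was 6.36 to 6.39 in knockout and 6.55 to 7.79 in control arrays. Omp and Cnga2, which define mature olfactory neurons, were dim and spread little, Omp at 6.61 to 6.84 and Cnga2 at 5.33 to 5.60. Omp was highest on the replicate 2 arrays of both control groups, at 6.84 on each, and Cnga2 on NestinCre control replicate 2. The part of this tissue in the Cbr2 values was not tested.

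**Figure D2:**
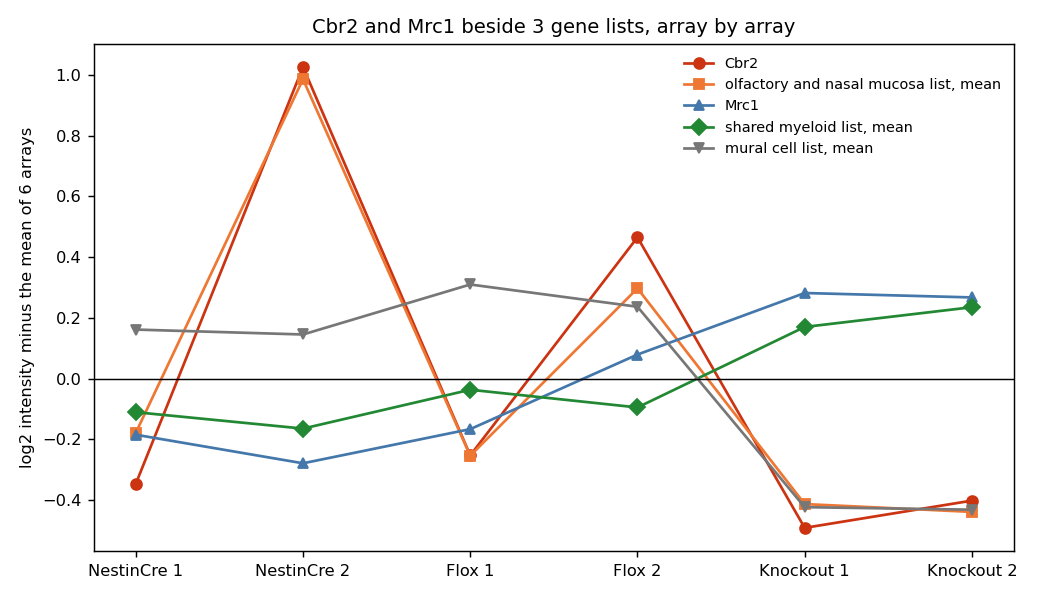
Log2 intensity on each array minus the mean of the 6 arrays (y axis) for Cbr2, Mrc1 and the means of 3 gene lists, array by array (x axis). Lines only join the points of a series. Cbr2 and the nasal mucosa list are high on both control arrays of replicate 2, while Mrc1 and the shared myeloid list are highest on the 2 knockout arrays and the mural cell list is lowest there.

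Ms4a7 encodes a membrane protein of the MS4A family that separates border macrophages from microglia. Its probe set 1 read 6.14 and 6.30 in NestinCre control, 6.32 and 6.37 in Flox control, and 6.34 and 6.28 in knockout brain. The groups overlapped, and the difference was 0.02 (SE 0.07, 95% interval -0.14 to 0.19, limma adjusted p 0.951). Probe set 2 lay near the lowest values of the table, at 5.27 to 5.32 on all arrays, and gave no reading of the gene. Probe set 1 was dim as well, below the median of all probe sets on every array.

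**Figure D3:**
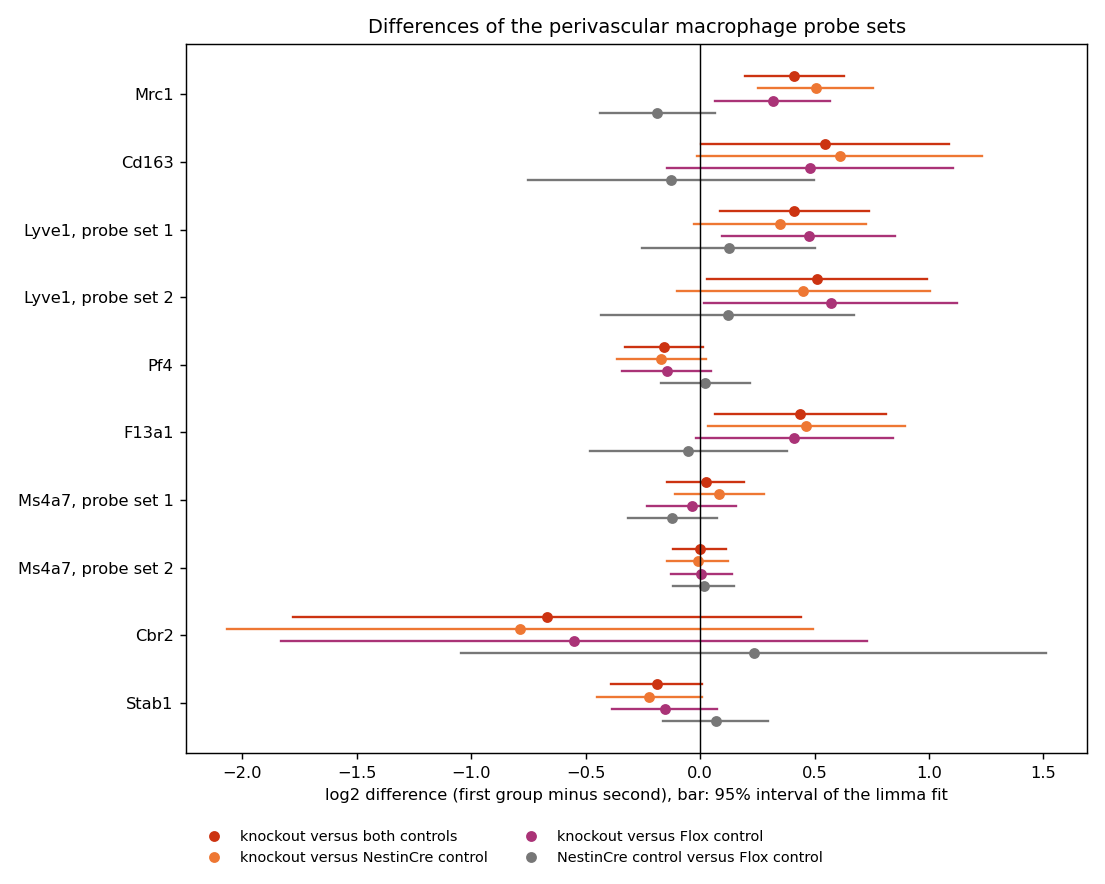
Log2 differences (x axis) of the 10 probe sets (y axis) in 4 comparisons, as points with 95% intervals of the limma fit. The knockout intervals against both controls lie above 0 for Mrc1, Cd163, both Lyve1 probe sets and F13a1, before adjustment, and include 0 for Pf4, Stab1, Cbr2 and both Ms4a7 probe sets.

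Each control alone gave the same signs for 7 of the 8 genes, and Ms4a7 differed in sign. Against NestinCre control, 2 of the 10 probe sets had an unadjusted limma p under 0.05, those of Mrc1 and F13a1, both higher, where 3.2% of all probe sets were. Cd163 was 0.61 higher there (SE 0.24, adjusted p 0.868, limma). Against Flox control 3 of the 10 did, those of Mrc1 and Lyve1, all higher, where 8.29% of all probe sets were. No member passed the adjusted threshold in either comparison (0 of 10 in each, against 0% and 0.00444% of all probe sets in limma). Between NestinCre control and Flox control 0 of 10 had an unadjusted p under 0.05, where 10.4% of all probe sets did. The member median was 0.22 against NestinCre control, 0.14 against Flox control and -0.01 between the controls. The largest gap between controls was that of Cbr2, 0.23 higher in NestinCre control, and Mrc1 was 0.19 lower there.

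The sexes were mixed. Xist was low and the Y-linked Eif2s3y high on 1 knockout array (replicate 1) and 1 NestinCre control array (replicate 2), which were taken as male, and the remaining 4 were taken as female. Between the 2 male arrays Mrc1 was 0.56 higher in the knockout, Cd163 0.76, F13a1 0.25 and Lyve1 probe set 1 0.23. Between the female knockout array and the mean of the 3 female controls the same genes were 0.36, 0.41, 0.56 and 0.52 higher. The order of the 4 genes by size thus differed between the sexes while the sign did not, and with 1 knockout array per sex the difference was not tested. With sex as a covariate, 2 of the 10 probe sets, Mrc1 and Lyve1 probe set 1, had an unadjusted limma p under 0.05, as had 4622 of all 45037.

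Mrc1, Cd163, Lyve1 and F13a1 had Pearson's r from 0.780 to 0.938 in their 6 pairs. Pf4, Stab1 and Cbr2 had r from 0.521 to 0.866 among their 3 pairs, and the 12 pairs across both sets ran from -0.731 to -0.085. Both sets were formed by the sign of the knockout difference on these same arrays, which largely fixes the signs of r, so the values only describe 6 arrays that share 3 genotypes and 1 normalization. Among 19372 brighter probe sets with 1 symbol, those most like Mrc1 over the 6 arrays were of Abcg2 (r 0.998), a transporter of the vessel wall and other barriers, Lima1 (0.988), Rbm39 (0.982) and the complement gene C1qb (0.980). Those most like the mean of the 8 members were of Spink10 (0.996), Ranbp6 (0.995), Tle3 (0.994), Dusp7 (0.992), Sbno1 (0.992) and Ppm1k (0.989). None of these 6 belongs to the macrophage lists. The member mean itself, at 7.43 to 7.48 in knockout and 7.19 to 7.53 in control arrays, did not separate the groups. That mean includes Cbr2, the member with the largest spread, which read 8.24 and 7.68 on the replicate 2 arrays of NestinCre control and Flox control.

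Among other border macrophage genes, Ms4a6d and Fcna lay above all controls on both knockout arrays, as Mrc1 did, and most others lay near 0. Of 15 measured of 16 listed, 6 were above 0, with a median of -0.02, beside 40.7% of all genes above 0. At an unadjusted p under 0.05, 2 were higher and 0 lower, where 4.16% and 6.45% of all genes were. Ms4a6d, of the same family as Ms4a7, read 7.11 and 7.34 in NestinCre control, 7.38 and 7.53 in Flox control, and 7.62 and 7.83 in knockout brain, a difference of 0.39 (SE 0.11, unadjusted p 0.0148, adjusted p 0.328, limma). Fcna, a ficolin of macrophages, was 0.16 higher (SE 0.06, unadjusted p 0.0391, adjusted p 0.420, limma). The folate receptor Folr2 was 0.16 higher (SE 0.07, unadjusted p 0.0840, limma). Cd209f, a lectin, was 0.12 lower (SE 0.11). Siglec1, the sialoadhesin of border macrophages, stayed dim at 5.64 to 5.82, and Dab2 read 8.80 to 9.03 with the groups overlapping.

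Among 12 further scavenger and lectin receptors, 9 were above 0, with 1 higher and 3 lower at an unadjusted p under 0.05. Clec7a, the beta-glucan receptor dectin-1, read 5.66 to 5.85 on the 4 control arrays and 7.01 and 6.86 on the knockout arrays. The groups were far apart, by 1.14 (SE 0.07, unadjusted p 2.38e-05, adjusted p 0.0630, limma). Scara3 was 1.17 lower (SE 0.17, adjusted p 0.182, limma), Scara5, a ferritin receptor, 0.45 lower and Mrc2, the collagen-binding relative of Mrc1, 0.37 lower. Mrc2 thus read in the opposite direction to Mrc1, with an unadjusted p of 0.0180 in limma.

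Of 12 general myeloid genes, among which Adgre1 and the C1q genes are mainly of macrophages, 8 were higher at an unadjusted p under 0.05 and 0 lower, with 0 past the adjusted threshold in limma. All 12 were above 0, with a median of 0.30. Aif1, the calcium-binding protein IBA1, read 7.81 to 8.09 on the control arrays and 8.59 and 8.63 on the knockout arrays, a difference of 0.70 (SE 0.06, adjusted p 0.0978, limma). Ptprc, the leukocyte antigen CD45, read 7.01 to 7.27 and then 7.86 and 7.83, a difference of 0.70 (SE 0.09, adjusted p 0.153, limma). Tyrobp was 0.48 and Adgre1, the F4/80 antigen, 0.36 higher. The remaining 4 did not reach an unadjusted p of 0.05: Cd14 at 0.16, Itgam at 0.03, Laptm5 at 0.02 and Spi1, the gene of PU.1, at 0.01. Laptm5 was bright, at 11.11 to 11.31, with the groups overlapping. The mean log2 intensity of the list was 8.75 to 8.82 in knockout and 8.42 to 8.55 in control arrays, so this list separated the groups. The member mean, which includes the widely spread Cbr2, did not. The part of the myeloid list in the Mrc1 values was not tested.

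Microglial genes read higher more often than not, with smaller differences. Of 11 measured of 12 listed, 9 were above 0, with a median of 0.10, 0 higher and 1 lower at an unadjusted p under 0.05. Trem2 was 0.30 higher (SE 0.13), Cx3cr1 0.19 and P2ry13 0.13, and Sparc, also made by vessel cells, was 0.24 lower (SE 0.07, adjusted p 0.336, limma). Of 9 measured of 12 monocyte and neutrophil genes, 3 were above 0, with 1 higher and 0 lower at an unadjusted p under 0.05. Lyz2, the lysozyme of macrophages and neutrophils, was 0.37 higher (SE 0.15, unadjusted p 0.0525, limma), Plac8 0.10 higher and Itgal 0.15 lower. S100a8 and S100a9, neutrophil genes that were below 0, read 9.16 and 9.28 on NestinCre control replicate 2 against at most 6.56 and 6.97 on the other arrays, and Camp, Chil3 and Ngp were highest there too. Ccr2, the receptor by which monocytes enter tissue, was dim at 5.41 to 5.79 and 0.23 higher (SE 0.09, unadjusted p 0.0458, limma). Of 10 dendritic cell and MHC class II genes, 7 were above 0 and 2 were higher at an unadjusted p under 0.05. These were Itgax, the integrin CD11c, 0.70 higher (SE 0.06, adjusted p 0.0890, limma), and Cd74, 0.43 higher (SE 0.16, adjusted p 0.444, limma). H2-Aa read 0.30 and Xcr1 0.10 higher, but H2-Aa was 0.64 above NestinCre control and 0.04 below Flox control. The growth factors and receptors of macrophages differed little. Of these 12, 9 were above 0, with Csf2rb 0.28 and Ccl2 0.15 higher at unadjusted p of 0.0137 and 0.0269 in limma. Csf2rb was 0.49 above NestinCre control but 0.08 above Flox control, whose arrays overlapped the knockout, and the controls themselves differed by 0.41. Ccl2 was 0.06 above NestinCre control and 0.25 above Flox control. Csf2ra was 0.18 and Tgfbr2 0.16 higher, short of an unadjusted limma p of 0.05. Above NestinCre control they were 0.02 and 0.25 higher, and above Flox control 0.34 and 0.07. Csf1r, the receptor on which macrophages depend, read 12.04 to 12.30 with the groups overlapping.

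**Figure D4:**
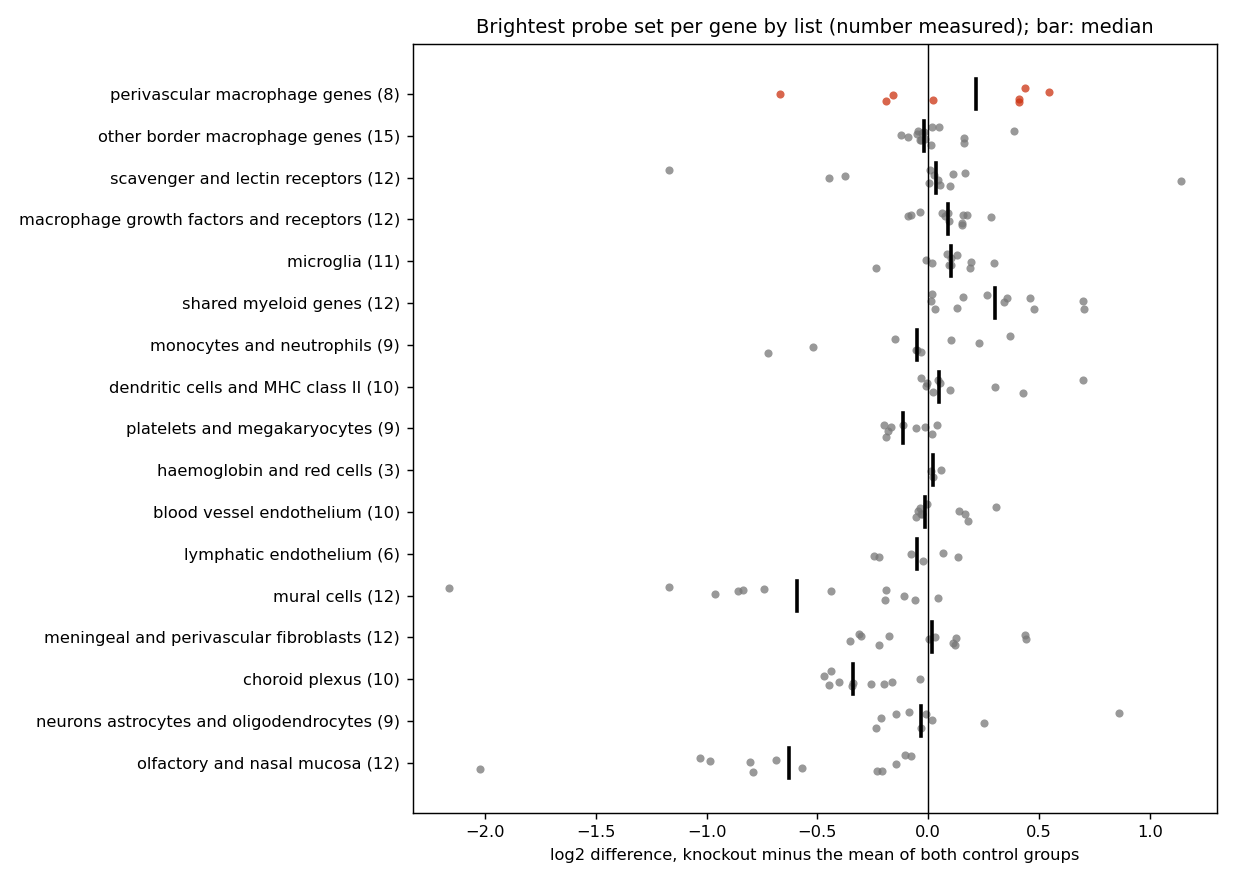
Log2 difference of knockout minus the mean of both control groups (x axis) for the brightest probe set of each gene in 17 lists (y axis, number measured in brackets), with a bar at each list's median. The members, in red, fall on both sides of 0 around a median of 0.22, while 12 of 12 shared myeloid genes lie above 0 and 11 of 12 mural genes below.

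The cells beside which perivascular macrophages lie read differently. Of 12 mural cell genes, 11 were below 0, with a median of -0.59 and 8 lower at an unadjusted p under 0.05. Rgs5, a regulator of G protein signalling in pericytes, fell by 2.16 on the log2 scale (SE 0.08, adjusted p 0.0263, limma) and was the only gene of these lists past the adjusted threshold. Of all probe sets, 0 passed with the replicate number as a block and 0 to 1 with an array left out. Its log2 intensity was 11.05 to 11.19 on the control arrays and 9.06 and 8.86 on the knockout arrays. Higd1b was 0.96 lower (SE 0.05, adjusted p 0.0501, limma), Myh11, the myosin of smooth muscle, 0.86 lower (adjusted p 0.176, limma), and Notch3, the Notch receptor of mural cells, 1.17 lower (adjusted p 0.182, limma). Of 10 blood vessel endothelial genes 4 were above 0, with a median of -0.02 and 0 past an unadjusted p of 0.05 in limma. Slco1a4 was 0.14, Tie1 0.30, Pecam1 0.16 and Cldn5 0.18 higher there, each with an unadjusted limma p above 0.05. Fibroblasts of the meninges and vessels had 7 of 12 above 0, with a median of 0.02, 1 higher and 3 lower at an unadjusted p under 0.05. Dcn, the proteoglycan decorin, was 0.44 higher (SE 0.11, adjusted p 0.295, limma). Lum was 0.30 lower, Aldh1a2, the enzyme that makes retinoic acid, 0.35 lower and Slc22a6 0.17 lower, with adjusted limma p of 0.208, 0.240 and 0.447. Aldh1a2 was 0.63 below Flox control but 0.07 below NestinCre control, whose arrays overlapped the knockout, and the controls themselves differed by 0.56. All 10 choroid plexus genes were below 0, with a median of -0.34 and 5 lower at an unadjusted p under 0.05, and the choroid plexus is a site of border macrophages too. Kcne2 was 0.47, Kcnj13 0.45, Clic6 0.44 and Kl 0.40 lower, with adjusted limma p of 0.269 to 0.307. The mean log2 intensity of the choroid plexus list was 8.53 to 8.62 in knockout and 8.78 to 8.96 in control arrays. Ttr, the brightest gene of this list, read only 0.04 lower (SE 0.06). The part of the choroid plexus in the lower Stab1 and Pf4 values was not tested. Of 3 measured red cell genes, Alas2 read 0.06, Hba-a1 0.02 and Slc4a1 0.01 higher. Of 9 genes of neurons, astrocytes and oligodendrocytes, 2 were higher and 2 lower at an unadjusted p under 0.05: Gfap by 0.86 and Aqp4 by 0.25 higher, and Slc1a2 by 0.23 and Mog by 0.21 lower, with adjusted limma p of 0.0890 to 0.414.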

How the data were processed

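Log2 differences were computed from the intensity values the authors deposited, on a linear scale, with a single value for each probe set on each array. The submitters' processing notes name GCOS and RMA, without versions or the order of use. RMA gives arrays a common distribution and compresses differences of dim probe sets. Labelled cDNA was made from 25 ng of RNA per the labels' protocols.

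Of 45101 probe sets, 64 controls were left out. Symbols came from the platform annotation (34945 probe sets with 1 symbol, 932 with several, 9160 with none), and all 8 members matched RefSeq symbols. Log2 was taken with no offset. A mean per group was fitted over all 6 arrays with limma 3.58.1 in R 4.3.3 (lmFit, contrasts.fit, eBayes). Benjamini-Hochberg adjustment covered 45037 probe sets, and SE is that of the limma difference. Array medians were 7.32 to 7.36 on the log2 scale, and replicates correlated at 0.993 to 0.995. Arrays of different groups correlated at 0.985 to 0.995. The highest pair of all was NestinCre control replicate 2 with knockout replicate 1, the arrays taken as male. The number of arrays limits the precision. The labels do not tie samples to animals, and the p-values therefore cover only variation between these samples. In NestinCre control and in knockout the 2 arrays were taken as different sexes, so they were not repeats of the same RNA. Both Flox control arrays were taken as female, and the variation between them may be technical.

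On simulated data for the knockout against both controls (45037 probe sets), the test called 22% of shifts of 0.5 and 58% of shifts of 1 among brighter probe sets. It also called 3 unchanged probe sets. The noise was drawn independently for each array, and Lyve1, Ms4a7 and Cbr2 are dimmer than the shifted probe sets, so these shares do not cover them.

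Members, lists and tests were chosen with earlier results of these data known. Every member was named, with up to 4 genes of every other list by smallest unadjusted p, Pofut1, and the 6 and 4 probe sets most like the member mean and Mrc1. Outside that rule, Dab2, Siglec1, Tbx1, Ppbp, Spi1, Itgam, Laptm5, Cd14, Csf1r, S100a8, S100a9, Camp, Chil3, Ngp, Stoml3, Cyp2g1, Umodl1, Bpifb3, Obp1a, Cnga4, Omp and Cnga2 and the mucosal list were named after their values were seen. Alternatives were other normalization, centring, filters on dim probe sets, eBayes settings, fits on the compared groups, a replicate block, 1 probe set per gene, log2 of the value plus 16, control probe sets kept, arrays left out, and sex.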

Additional observations from a re-analysis of the deposited data

How the results depend on the processing

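In the knockout against both controls, 0 member probe sets passed the adjusted threshold under every alternative run (main count at an unadjusted limma p under 0.05: 5 higher and 0 lower, median 0.22). In the main fit 6.04% of all probe sets were higher and 5.08% lower at that unadjusted p. The higher count was 3 under each filter on dim probe sets, which drops Lyve1 and Ms4a7, and the median was 0.41 under the filter on the mean, which also drops Cbr2. It was 2 with sex as a covariate and 1 on the female arrays alone, where the spread comes from the 2 Flox control arrays. The lower count was 1 after repeated quantile normalization (Pf4) and 1 after centring on array medians (Stab1). With arrays left out in turn, the counts were 1 to 5 higher and 0 to 1 lower, and the median 0.16 to 0.26. The higher count was 1 without NestinCre control replicate 1 and 1 without knockout replicate 2, each time Mrc1 alone, and 3 without NestinCre control replicate 2 or knockout replicate 1. The causes were not tested. Mrc1 kept an unadjusted limma p under 0.05 in 18 alternatives and lost it on the female arrays alone.

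Deviations of same-numbered arrays from their group means correlated at r of 0.19 between the controls, and at -0.31 and -0.24 between each control and the knockout. With 2 arrays per group, swapping the numbers within a group only changes the sign of r. These values therefore cannot show whether the samples were paired. With a replicate block 4 member probe sets were higher and 0 lower at an unadjusted limma p under 0.05, as 4423 of all 45037 had one. Cd163 lost it (unadjusted limma p 0.0738), and 0 of all probe sets passed the adjusted threshold. Using replicate 1 controls alone, added after seeing the data, gave a median of 0.26. That setting has 1 array in each control group and no spread between controls, so only the size is given.

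All-probe-set calls at the adjusted threshold in limma were 7, but 22 after centring, 61 and 36 with the dim filters, 34 with 1 probe set per gene, 135 with an intensity trend, 202 with trend and robust fitting, and 0 to 1 with an array left out. Fits on the compared groups alone give no value for the comparison with both controls.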
